A study of Mus musculus with 4 samples.

Results

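The genes that write, remove and take part in the oxidation of methylated cytosine were followed in ATDC5 cells, a clonal mouse chondroprogenitor line derived from a teratocarcinoma, on 4 whole-transcript expression arrays. They were taken as the 10 genes Tet1, Tet2, Tet3, Gadd45a, Gadd45b, Gadd45g, Dnmt1, Dnmt3a, Uhrf1 and Idh1 of 19938 genes with a probe set of their own. All probe sets annotated to exactly 1 of these symbols are shown, which were 13 of 21789, with 3 for Tet1, 2 for Tet3 and 1 for each of the others. Unless another is named, the values of a gene are those of its brightest probe set. The day 15 group held 2 arrays of cells grown for 15 days with a supplement of insulin, transferrin and selenite. The day 0 group held 2 arrays of undifferentiated cells in the basal medium alone. Both media were built on DMEM/F12 with fetal bovine serum, glutamine, an antibiotic mix and ascorbic acid, and no group of cells was kept for 15 days without the supplement. Time in culture, the supplement and differentiation can therefore not be told apart.

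Methyl groups are placed on cytosine of CpG dinucleotides by DNA methyltransferases. Dnmt3a sets new marks, and Dnmt1, guided by Uhrf1 to half-methylated DNA behind the replication fork, copies them. Tet enzymes oxidize methylcytosine to hydroxymethylcytosine and further, and need iron, oxygen and 2-oxoglutarate, with ascorbate as an aid. Idh1 makes 2-oxoglutarate in the cytosol, and Gadd45 proteins, small stress-response proteins that also bind the kinase Map3k4, have been tied to active demethylation through repair. The series concerns gain of hydroxymethylcytosine at genes that become active in chondrogenesis. These arrays measure RNA and hold no measurement of cytosine modification.

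Because only Gadd45a of the 3 Gadd45 genes was called, the 250 bases upstream of their RefSeq starts (build GRCm38.p6, with the sequence of the gene's strand from 5′ to 3′) are shown, with capitals for the octamer ATTTGCAT and the CCAAT box, each on either strand.

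Gadd45a (chr6:67037408-67037657, minus strand): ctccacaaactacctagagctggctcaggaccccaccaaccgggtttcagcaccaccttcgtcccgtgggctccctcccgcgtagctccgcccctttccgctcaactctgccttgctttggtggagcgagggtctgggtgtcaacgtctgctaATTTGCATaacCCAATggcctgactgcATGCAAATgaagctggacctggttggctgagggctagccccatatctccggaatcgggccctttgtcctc
Gadd45b (chr10:80929841-80930090, plus strand): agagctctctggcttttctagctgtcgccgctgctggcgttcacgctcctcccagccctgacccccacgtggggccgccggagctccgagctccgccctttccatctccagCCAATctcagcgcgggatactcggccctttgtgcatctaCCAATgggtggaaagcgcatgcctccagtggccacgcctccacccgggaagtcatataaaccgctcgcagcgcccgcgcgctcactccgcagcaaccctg
Gadd45g (chr13:51846425-51846674, plus strand): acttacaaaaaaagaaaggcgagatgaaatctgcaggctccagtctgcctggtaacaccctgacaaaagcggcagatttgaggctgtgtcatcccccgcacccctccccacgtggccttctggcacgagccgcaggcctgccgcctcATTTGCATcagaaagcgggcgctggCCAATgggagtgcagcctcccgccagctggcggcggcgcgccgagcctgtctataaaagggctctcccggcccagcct

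The Gadd45a window held the octamer at 97 to 90 and, on the other strand, at 70 to 63 bases upstream of the start, on both sides of a CCAAT box at 86 to 82. Gadd45g held 1 octamer at 103 to 96 bases and 1 CCAAT box at 78 to 74. Gadd45b held CCAAT letters at 139 to 135 and 100 to 96 bases and no octamer in this window. Of 32841 such windows 1.60% held an octamer, 33.9% a CCAAT box and 0.767% both. The octamer letters were thus in the upstream window of the 1 Gadd45 gene that was called and in that of Gadd45g, which was not.

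Methylation acts at CpG dinucleotides, and these are in capitals in the window of Tet1, the gene with the largest difference of the 10. E2F letters (TTTGGCGC, TTTCCCGC, TTTGCCGC or TTTCGCGC on either strand) are in capitals in the window of the downstream start of Uhrf1, a gene known to be used in S phase.

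Tet1 (chr10:62887325-62887574, minus strand): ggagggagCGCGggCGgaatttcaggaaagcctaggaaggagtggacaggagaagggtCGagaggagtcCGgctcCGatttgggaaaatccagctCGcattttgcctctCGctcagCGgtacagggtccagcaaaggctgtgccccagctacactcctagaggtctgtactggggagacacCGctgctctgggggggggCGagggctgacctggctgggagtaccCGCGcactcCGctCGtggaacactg
Uhrf1 (chr17:56304063-56304312, plus strand): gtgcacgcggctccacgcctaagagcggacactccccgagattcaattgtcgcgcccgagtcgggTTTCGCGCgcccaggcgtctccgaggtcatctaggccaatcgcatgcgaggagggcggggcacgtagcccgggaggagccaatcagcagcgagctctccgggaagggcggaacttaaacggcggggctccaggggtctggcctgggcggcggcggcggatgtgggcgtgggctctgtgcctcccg

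The Tet1 window held 15 CpG dinucleotides, against a median of 6 over all windows and an upper quartile of 16. Tet2 held 51, at a percentile of 99.95 of all windows, and Tet3 held 17. Counts were 38, 40 and 15 at the 3 starts of Dnmt3a, 11 for Gadd45a, 22 for Gadd45b and 16 for Gadd45g. Dnmt1, which has 3 starts, held 2, 7 and 26, and Uhrf1 held 10 and 30. Each of Dnmt1 and Uhrf1 held E2F letters at 1 start, the most downstream one, and no other of the 10 genes did. Of all windows 1.86% held them. Idh1 held 18 and 22 CpG dinucleotides at its 2 starts.

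The deposited intensities ran from 0.72 to 23103, and the arrays' medians differed by 0.20 on the log2 scale before quantile normalization. The cell type label was checked on 10 chondrocyte markers. Of these Hapln1, Col10a1, Matn1, Acan and Col2a1 (5 in all) were called higher at day 15 (limma adjusted p below 0.05) and none lower. Over all genes 1.30% were called higher. Sox9, Col9a1, Col11a2, Comp and Matn3 were not called, and of the 10 only Matn3 had a negative difference (−0.13 log2). The 10 macrophage markers, among them C1qb and Csf1r, averaged 8.94 and 7.19 (log2 intensity) on the day 15 arrays of replicates 1 and 2 and 9.05 and 7.21 on those of day 0. On average they were thus high on both replicate 1 arrays, of either day. C1qb read 11.11 and 5.80 in replicates 1 and 2 at day 15, and 11.36 and 6.09 at day 0. Ptprc and Adgre1 instead read lower in replicate 1 on both days, while the others of the list read higher. Of the 10 genes 2, Uhrf1 and Idh1, were higher in replicate 1 on both days, as were 34.1% of all genes, and the part of the macrophage markers in their values was not tested. None of 6 measured adipocyte and 6 skeletal muscle markers was called by limma (1 and 0 at an unadjusted p below 0.05). In bulk RNA fewer cells of a type and less RNA per cell cannot be told apart. Nothing in the labels says whether the arrays of a day stem from different cultures, and p-values then cover the spread between arrays, possibly a technical one.

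Day 15 was compared with day 0 to ask how the RNA of these genes changes over the course of chondrogenesis. Of the 10 genes 1, Gadd45a, rose and none fell. Over all 19938 genes 1.72% were called (1.30% higher, 0.411% lower), by limma with a Benjamini-Hochberg adjusted p below 0.05. An unadjusted p below 0.05 was found for 4 of the 10, namely Gadd45a, Tet1, Uhrf1 and Tet2, and for 12.2% of all genes. Both day 15 arrays were above both day 0 arrays for Tet1, Tet2 and Gadd45a (22.3% of all genes), and below them for Gadd45b, Dnmt1 and Uhrf1 (17.8% of all genes). The days thus did not overlap for 6 of the 10, as for 40.1% of all genes. The median difference of the 10 genes was 0.20 log2, beside 0.02 for all genes. Since level depends on the probe, levels are compared within a gene only.

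**Figure D1:**
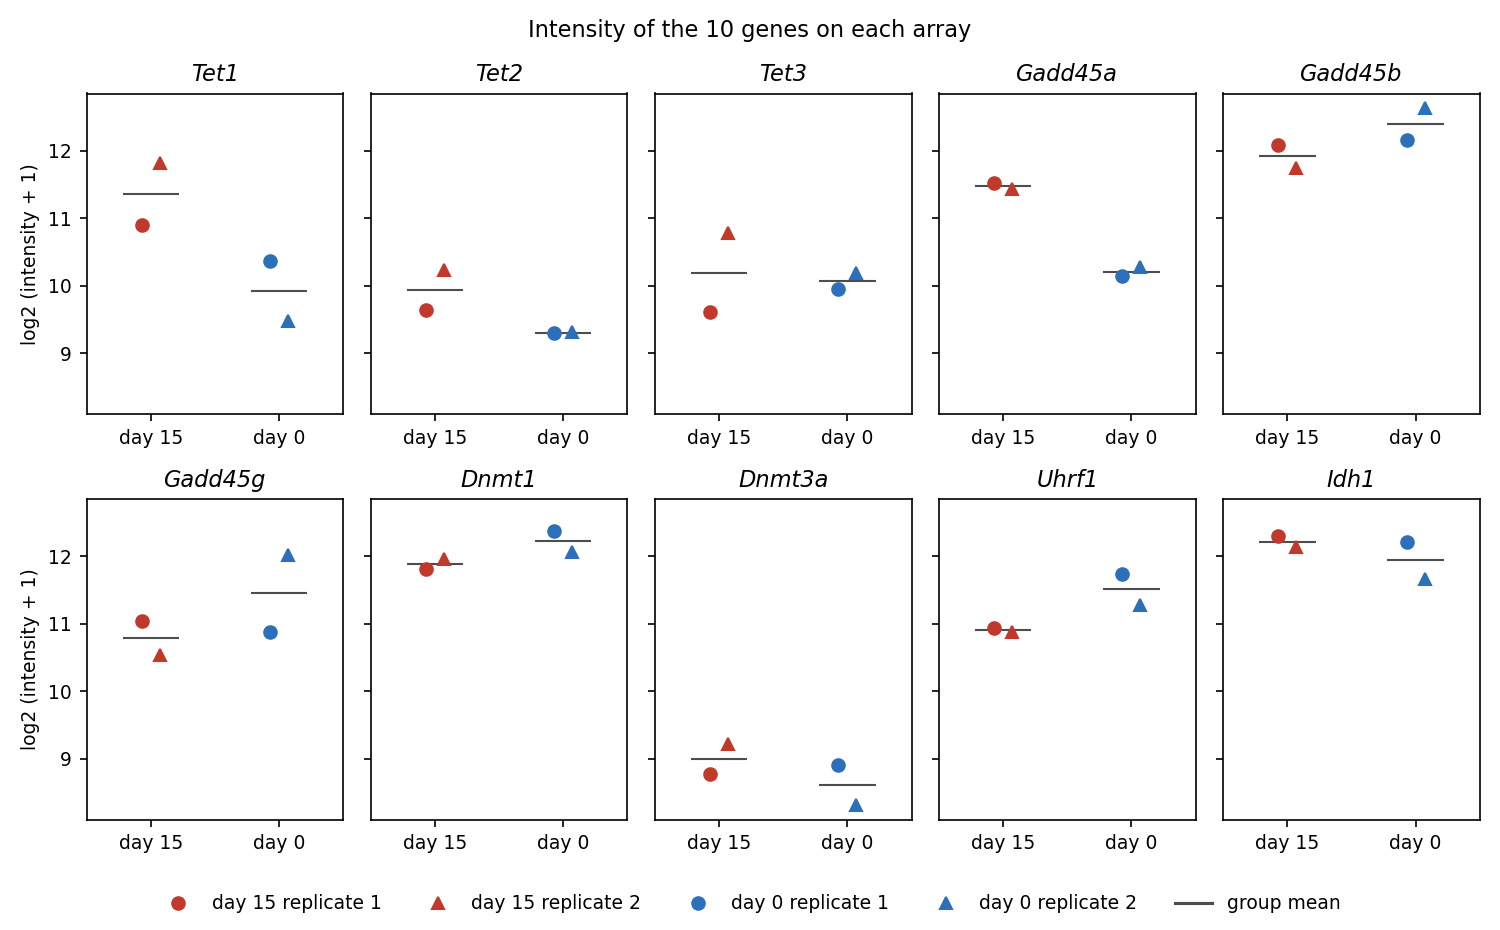
Quantile-normalized log2 (intensity + 1) of the 10 genes on each array, with day 15 arrays in red and day 0 arrays in blue. Circles are replicate 1, triangles replicate 2 and lines group means. Gadd45a sits at 11.52 and 11.43 at day 15 and at 10.14 and 10.27 at day 0, while the Tet1 arrays of each day lie far apart.

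Among the Tet enzymes, Tet1 had the largest difference. Its brightest probe set (10369702) read 10.90 and 11.82 on the day 15 arrays of replicates 1 and 2, against 10.36 and 9.47 on the day 0 arrays (log2 intensity plus 1). Day 15 was above day 0 on all arrays, and the nearest arrays of the 2 days, both of replicate 1, were 0.54 log2 apart. The means were 11.36 ± 0.65 at day 15 and 9.92 ± 0.63 at day 0 (SD, n = 2 arrays each), so each day's arrays spread by more than that gap. The difference was 1.45 log2, or 2.72-fold with a 95% interval of 1.35- to 5.48-fold. By its size in either direction it stood at place 379 of 19938 genes, and it did not pass (limma adjusted p = 0.223, unadjusted 0.0130). Within replicate 1 Tet1 was 1.45-fold higher at day 15, and within replicate 2 it was 5.10-fold higher. The gap between these 2 differences, 1.81 log2, was larger than that of 99.6% of all genes, of which the median was 0.23.

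All 3 Tet1 probe sets had this order of arrays. The dimmest, 10369688, had deposited intensities of 548 and 1276 at day 15, against 448 and 216 at day 0. Probe set 10369690 had 1418 and 2650 at day 15 and 999 and 514 at day 0, and the brightest had 1925 and 3639 at day 15 and 1305 and 699 at day 0. Replicate 2 was the highest array at day 15 and the lowest at day 0 in each. Their differences were 1.39, 1.41 and 1.45 log2, with adjusted p between 0.231 and 0.365 when all 21789 probe sets with 1 symbol were tested together. The probe sets read the same RNA samples and are not replicates of a day.

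**Figure D2:**
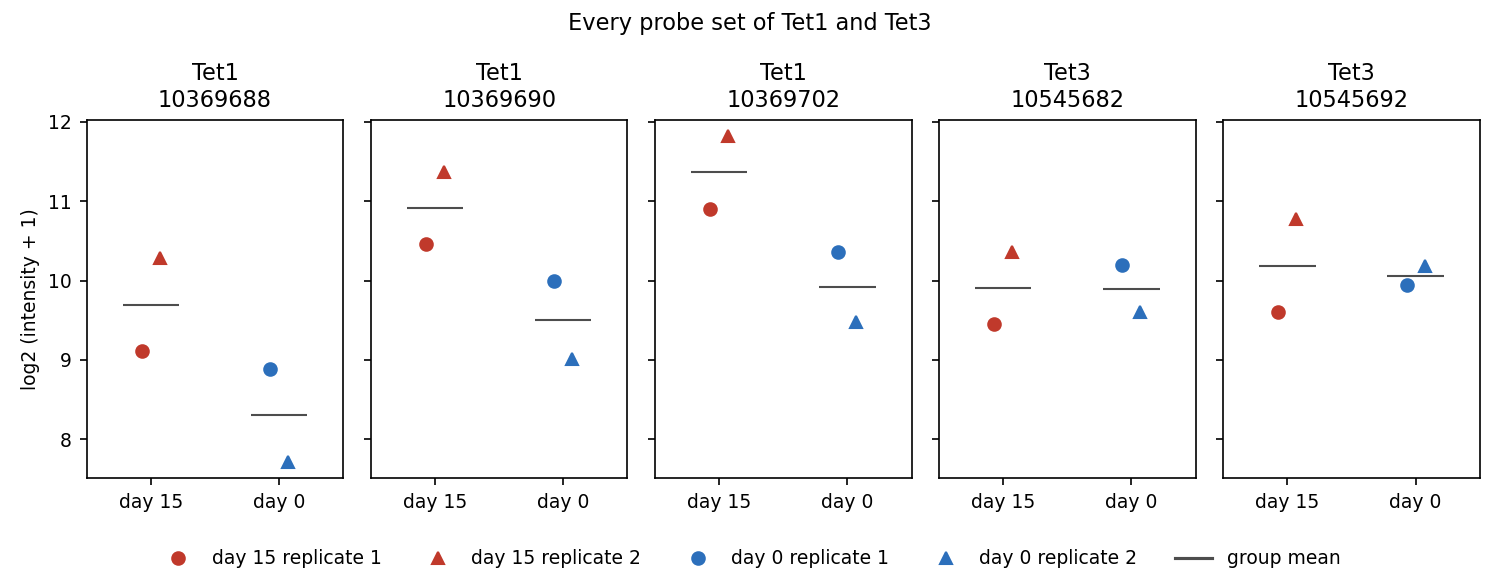
Quantile-normalized log2 (intensity + 1) of the 3 probe sets of Tet1 and the 2 of Tet3 on each array, day 15 in red and day 0 in blue, circles for replicate 1 and triangles for replicate 2, with lines for group means. The Tet1 probe sets differ by 1.39, 1.41 and 1.45 log2, and the Tet3 probe sets overlap between the days.

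Tet2, which is the Tet enzyme best known from blood cells, read 9.64 and 10.23 at day 15, against 9.30 and 9.31 at day 0. The day 0 arrays were almost equal, and both day 15 arrays were above them. At 0.63 ± 0.24 log2 (SE), the difference was 1.55-fold with a 95% interval of 1.03- to 2.32-fold and was not called (limma adjusted p = 0.367). Tet3, the Tet enzyme of the oocyte and zygote, read 9.60 and 10.77 at day 15 and 9.94 and 10.18 at day 0 on its brightest probe set (10545692). The day 0 arrays lay between the day 15 arrays. Its other probe set (10545682) read 9.45 and 10.36 at day 15 and 10.19 and 9.60 at day 0, which overlapped as well, and differed by 0.01 log2. The 95% interval of the brightest, 0.565- to 2.11-fold, leaves room for a change in either direction (limma adjusted p = 0.977). All 3 Tet genes read higher in replicate 2 than in replicate 1 at day 15, by 0.92, 0.59 and 1.17 log2 for Tet1, Tet2 and Tet3.

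Of the Gadd45 family, Gadd45a (probe set 10545130), a target of p53 that is also induced by stress and growth arrest, rose. It had deposited intensities of 2949 and 2775 at day 15, against 1118 and 1210 at day 0, and normalized log2 values of 11.52 and 11.43 against 10.14 and 10.27. The arrays of each day differed by at most 0.13 log2, and the days were 1.15 apart at their nearest. The rise was 2.41-fold, with a 95% interval of 1.81- to 3.19-fold (1.27 ± 0.17 log2, SE, limma adjusted p = 0.0294), and was 2.60-fold within replicate 1 and 2.23-fold within replicate 2. No call remained in any fit on 3 arrays. Dropping an array of day 15 gave a limma adjusted p of 0.118 (replicate 1) or 0.0846 (replicate 2), and dropping one of day 0 gave 0.103 (replicate 1) or 0.0913 (replicate 2), while the difference stayed between 1.20 and 1.32 log2. By size in either direction it stood below Tet1, at place 484, and by p it stood at place 209, ahead of the 1160 of Tet1.

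Gadd45b, a family member induced by TGF-beta, read 12.09 and 11.75 at day 15, against 12.16 and 12.63 at day 0 (probe set 10364950). Both day 15 arrays were lower, but those of replicate 1 differed by only 0.07 log2. The difference, −0.48 ± 0.23 log2 (SE), was not called (limma adjusted p = 0.528). Gadd45g, which was first described as a cytokine response gene, read 11.05 and 10.54 at day 15 and 10.88 and 12.02 at day 0 (probe set 10405211). The day 0 array of replicate 2 was the highest and the days overlapped. The difference was −0.66 ± 0.40 log2 (SE, limma adjusted p = 0.648), with a 95% interval of −1.65 to 0.32. Within replicate 1 the Gadd45g difference was 0.16 log2 and within replicate 2 it was −1.48, a gap larger than that of 99.4% of all genes.

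The maintenance pair read lower at day 15 on both arrays, and neither gene passed. Uhrf1 (probe set 10446074) read 10.94 and 10.88 at day 15, against 11.75 and 11.28 at day 0. The day 15 arrays were nearly equal and lay 0.33 log2 below the lower day 0 array. Its difference was −0.60 log2, which is 0.659-fold with a 95% interval of 0.459- to 0.947-fold (limma adjusted p = 0.333, unadjusted 0.0307). Dnmt1 (probe set 10591369) read 11.81 and 11.96 at day 15 and 12.38 and 12.07 at day 0. The nearest arrays of the days were 0.11 log2 apart, and the 95% interval, 0.572- to 1.09-fold, included a ratio of 1 (limma adjusted p = 0.600).

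Dnmt3a and Idh1 overlapped between the days. Dnmt3a (probe set 10394209) read 8.77 and 9.22 at day 15, against 8.91 and 8.31 at day 0, with a difference of −0.14 log2 within replicate 1 and 0.91 within replicate 2. Over both it was 0.39 ± 0.27 log2 (SE, limma adjusted p = 0.727). Idh1 (probe set 10355214) read 12.30 and 12.13 at day 15 and 12.21 and 11.67 at day 0. The day 0 array of replicate 2 was the low one, and the 95% interval of the difference was 0.815- to 1.79-fold (limma adjusted p = 0.791).

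**Figure D3:**
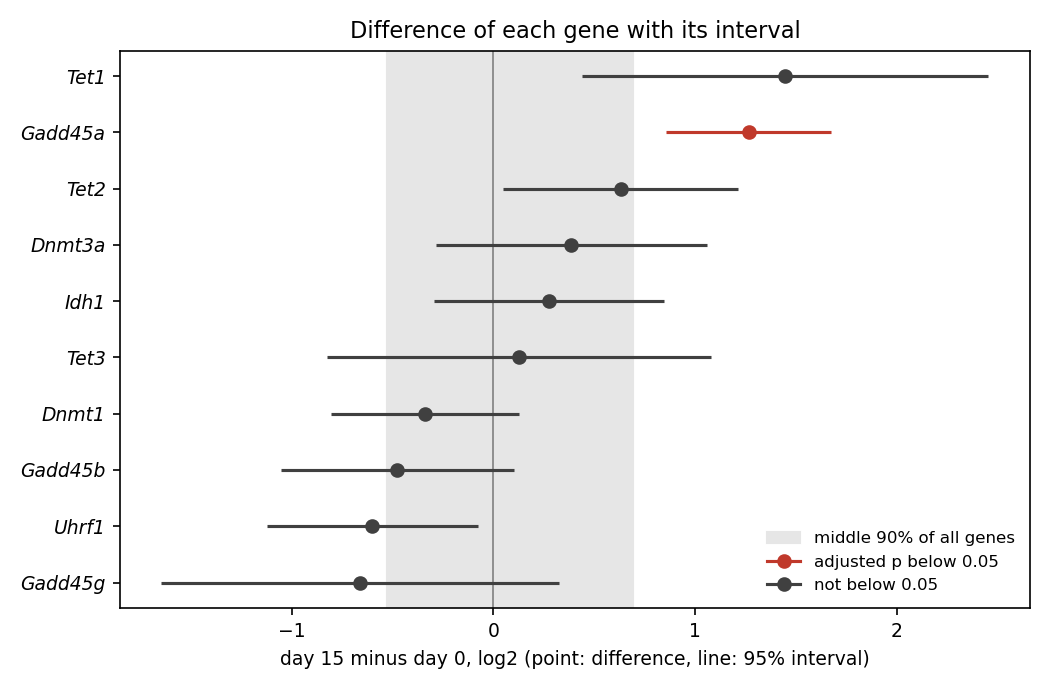
Day 15 minus day 0 in log2 for the 10 genes (points) with 95% intervals (lines), sorted by size, and in grey the range from −0.53 to 0.69 that holds the middle 90% of all genes. Gadd45a, in red, is the 1 gene with an adjusted p below 0.05, and the Tet1 interval, from 0.44 to 2.45, is wider.

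The 2 replicate numbers gave unlike differences for several of these genes. For Tet1, Tet2, Tet3, Dnmt3a and Idh1 the difference of day 15 over day 0 was higher in replicate 2 than in replicate 1, and for Tet3 and Dnmt3a it was below 0 in replicate 1. For Gadd45b and Gadd45g it was lower in replicate 2. Dnmt1 and Uhrf1 also had the higher difference in replicate 2, −0.11 and −0.40 log2, against −0.57 and −0.80 in replicate 1. For Gadd45a the replicates gave 1.38 and 1.15 log2. The 10 chondrocyte markers averaged 10.17 and 10.57 (log2 intensity) in replicates 1 and 2 at day 15, against 8.27 and 8.24 at day 0. At day 15 9 of the 10 read higher in replicate 2, as did 44.4% of all genes. Among the markers Acan, the core protein of aggrecan, read 10.22 and 11.56 at day 15, while Hapln1, a link protein of the matrix, read 12.90 and 12.92 and Matn3, a matrilin, read 8.07 and 7.74. The size of the step between replicates thus varied among the markers, and their part in the Tet1 values was not tested. The numbers are not said to mark a shared culture.

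**Figure D4:**
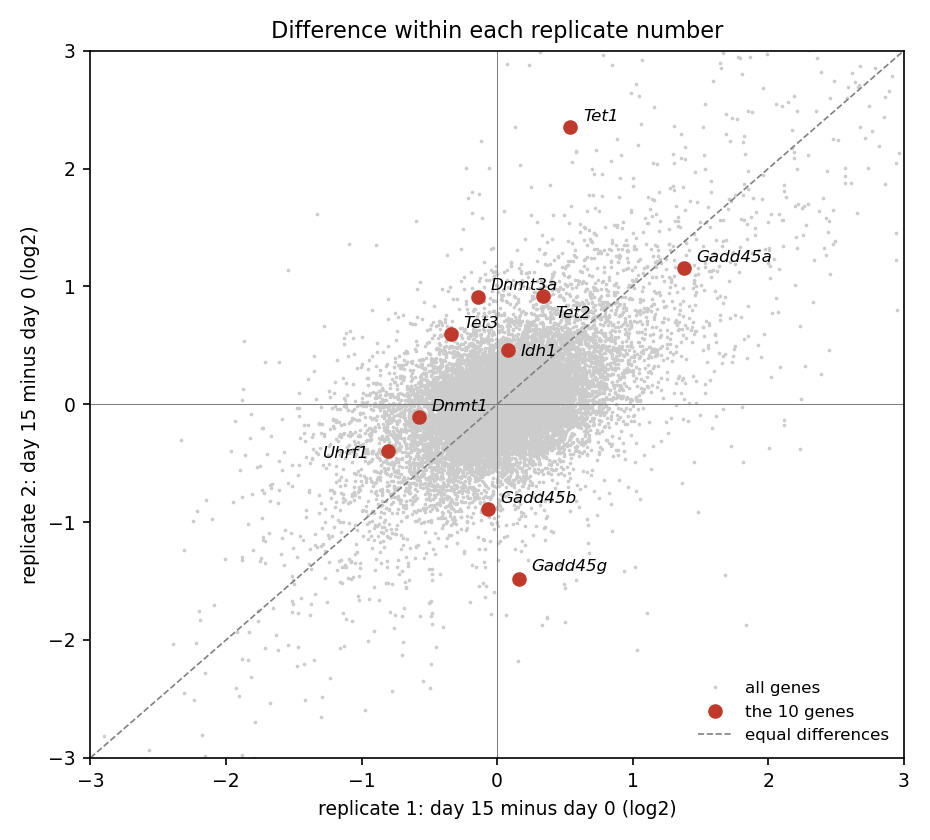
Day 15 minus day 0 in log2 within replicate 2 (vertical) against replicate 1 (horizontal), for the 10 genes (red) and all genes (grey), with a dashed line of equal differences. The window runs from −3 to 3 and leaves out 113 genes. Gadd45a lies near the line at 1.38 and 1.15, and Tet1 lies far above it at 0.54 and 2.35.

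The genes whose values over the 4 arrays were most like those of Tet1 were sought by the Euclidean distance of centred log2 values among 9968 other genes at or above the median level. They were Gstm7, Mylk, Ypel2, Mtus1 and Trp53inp1, at distances of 0.23 to 0.37 log2. None of the 5 was called, with differences of 1.35 to 1.57 log2 and limma adjusted p of 0.112 to 0.201. For Gadd45a they were Eepd1, Adamts10, Frg2f1, Ctns and Mab21l2, at 0.03 to 0.12 log2, and all 5 were called higher. With 4 arrays many genes share a pattern. The likeness was sought on the same values that the test used, so calls like those of Tet1 and Gadd45a follow from the choice. The comparison is therefore a description.

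The wider pathway was read from 9 lists with 110 genes, of which 98 were measured and the others are not analysed here. Of these 1 rose and none fell, which is 1.02%, beside 1.72% of all genes, and 11 (11.2%) had an unadjusted p below 0.05, beside 12.2% of all genes. Nnmt, which uses S-adenosylmethionine to methylate nicotinamide, was the one that rose. It read 10.95 and 9.96 at day 15, against 7.42 and 7.97 at day 0, a difference of 2.76 ± 0.37 log2 (SE, limma adjusted p = 0.0313). Its call ended without day 15 replicate 1 (limma adjusted p = 0.0561) and without day 0 replicate 1 (0.0531). The median difference of the 98 genes was −0.04 log2. The other 9 of 10 measured genes of the methionine cycle were not called. Mtr, methionine synthase, read 9.82 and 9.55 at day 15, against 10.60 and 9.71 at day 0. Its difference of −0.47 log2 rested on day 0 replicate 1, without which it was −0.019, and it was −0.92 without day 0 replicate 2.

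Among the other DNA methyltransferases and their partners none of 9 was called by limma. Of these 2 had an unadjusted p below 0.05, beside 12.2% of all genes. Zfp57, which keeps methylation at imprinted loci, read 10.12 and 9.80 at day 15, against 10.72 and 11.02 at day 0 (limma adjusted p = 0.136). Hells, a remodeller needed for DNA methylation, read 10.23 and 10.28 at day 15 and 10.69 and 10.99 at day 0 (limma adjusted p = 0.264). Both were lower on both day 15 arrays, as were 17.8% of all genes, without passing the test. Dnmt3b and Dnmt3l differed by 0.07 and −0.05 log2.

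None of 9 measured readers of modified CpG was called by limma (1 unadjusted). The largest differences were −0.44 log2 for Zbtb38 and 0.28 for Zbtb33, both zinc finger proteins that bind methylated DNA. None of 11 measured genes of base excision repair was called (1 unadjusted), and 9 of the 11 differences were negative, with a median of −0.21 log2, while 46.8% of all genes had negative differences. Apex1, the endonuclease at abasic sites, read 11.52 and 11.50 at day 15, against 12.10 and 12.06 at day 0 (limma adjusted p = 0.217), and Parp1 differed by −0.40 log2. Of 4 measured cytidine deaminases none was called (0 unadjusted), and Apobec1 and Apobec4 differed by 0.46 and 0.43 log2. Apobec1 differed by 0.10 log2 without day 15 replicate 1, and Apobec4 by 0.25 with the deposited scaling and 0.21 with median centring.

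Among 12 Tet partners and CXXC proteins none was called by limma (1 unadjusted). Cxxc5, a relative of Cxxc4, which binds Tet2, read 9.92 and 9.94 at day 15, against 9.14 and 8.90 at day 0. Both day 15 arrays were clear of day 0, and the difference of 0.91 ± 0.17 log2 (SE) missed the threshold (limma adjusted p = 0.0909). Ebf1, a transcription factor reported to bind Tet2, differed by 0.82 log2 (limma adjusted p = 0.461). The transferase Ogt, a partner of Tet2 and Tet3, read 11.21 and 11.32 at day 15 and 11.24 and 11.24 at day 0.

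The genes of a list for 2-oxoglutarate and 2-hydroxyglutarate metabolism and neighbouring steps differed little. None of 18 measured genes was called by limma (0 unadjusted), and all 18 differences lay between −0.28 log2 for Bcat1 and 0.25 for Bcat2, the cytosolic and mitochondrial transaminases of branched-chain amino acids. Idh2, the mitochondrial relative of Idh1, read 12.65 and 12.67 at day 15, against 12.81 and 12.35 at day 0. Of 9 genes of ascorbate transport and recycling none was called (1 unadjusted). Slc2a3, a glucose transporter that can also carry dehydroascorbate, read 9.10 and 8.86 at day 15, against 10.33 and 9.59 at day 0 (limma adjusted p = 0.227). Slc2a1, a transporter of the same list, went the other way. It read 12.83 and 12.85 at day 15, against 12.37 and 12.50 at day 0 (limma adjusted p = 0.413). Gsto2 differed by 0.48 log2. Slc23a2, an ascorbate transporter of many cells, overlapped between the days.

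Of 16 measured partners and regulators of Gadd45 none was called by limma. An unadjusted p below 0.05 was found for 4 of them, beside 12.2% of all genes. Map2k6, a kinase of the p38 pathway, read 9.72 and 9.44 at day 15, against 9.11 and 7.97 at day 0 (limma adjusted p = 0.354). Map2k3, another kinase of that pathway, went the other way. It read 11.82 and 11.60 at day 15, against 12.34 and 12.51 at day 0 (limma adjusted p = 0.168). Brca1, a repair protein known to induce Gadd45a, read 8.93 and 8.43 at day 15, against 10.15 and 9.15 at day 0 (limma adjusted p = 0.368). Ddit3, a stress-induced transcription factor, read 10.76 and 10.66 at day 15, against 9.76 and 9.76 at day 0. The day 15 arrays were higher by 0.95 ± 0.16 log2 (SE), which missed the threshold (limma adjusted p = 0.0634) and passed it with the replicate number as a block (limma adjusted p = 0.0413). Map3k4, the kinase that Gadd45 proteins bind, differed by −0.06 log2.

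**Figure D5:**
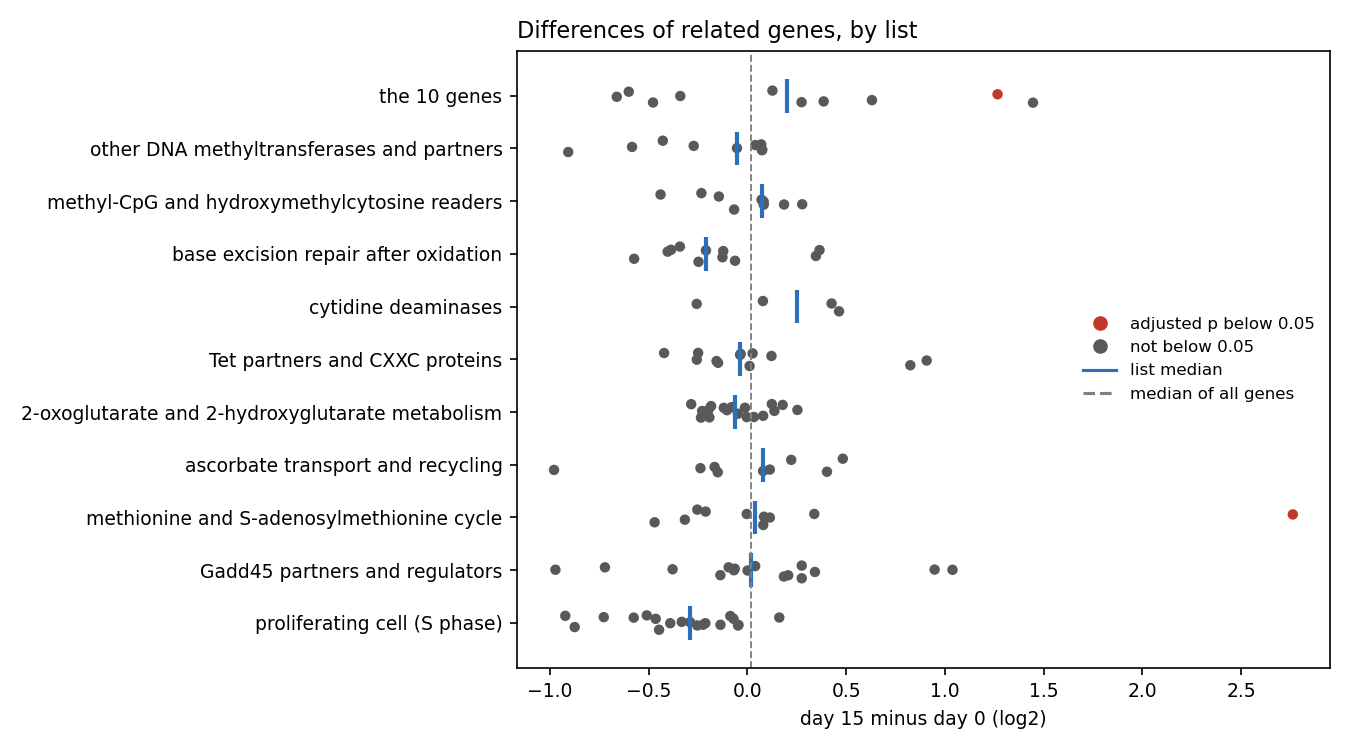
Day 15 minus day 0 in log2 for each measured gene (points) of the 10 genes, the 9 pathway lists and the S phase markers, with blue bars for list medians and a dashed line for the median of all genes, 0.02. Gadd45a and Nnmt, in red, have adjusted p below 0.05, and the S phase median lies at −0.29.

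Because Dnmt1 and Uhrf1 serve replicating DNA, 19 markers of proliferating cells are set beside them. None was called by limma, and 4 had an unadjusted p below 0.05 (12.2% of all genes did). Of the 19 differences 18 were negative, with a median of −0.29 log2, while 46.8% of all genes had negative differences. The markers averaged 11.42 and 11.27 at day 15, against 11.77 and 11.60 at day 0. The helicase subunits Mcm2 to Mcm7 differed by −0.14, −0.05, −0.09, −0.22, −0.25 and −0.05 log2. Mki67 and Top2a differed by −0.87 and −0.21, and their days overlapped. Mki67 differed by −1.88 log2 within replicate 1 and 0.13 within replicate 2, and Top2a by −0.51 and 0.08. The differences of Uhrf1 (−0.60) and Dnmt1 (−0.34) lay within the range of these markers. It ran from −0.92 for Cdc6, which loads the helicase, to 0.16 for Chaf1b. Among all genes Cdc6 stood at place 296 from the lowest difference and Chaf1b at place 5616 from the highest. The range thus held most genes, and lying within it does not set Uhrf1 and Dnmt1 apart from others. Among the markers only Cdc6, Mki67 and Pole (−0.73) had lower differences than Uhrf1. The part of proliferation in the values of Dnmt1 and Uhrf1 was not tested.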

How the data were processed

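Total RNA of 4 ATDC5 samples was hybridised to 1-colour whole-transcript Affymetrix arrays after biotin labelling, per the labels' protocols. For each probe set and array the authors deposited a processed intensity, which by its values is linear. How background was corrected, probes summarized and arrays normalized is not given in the sources used here. No detection call was used. The genome build was mm9 per the submitters' processing notes. The table of gene names is of GRCm38.p6, so gene coordinates are not printed, and promoter windows are those of RefSeq on that build, for all 10 genes.

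The platform annotation gives 1 symbol to 21789 of 35512 probe sets, several to 1621 and none to 12102, and only the first were used. Identifiers of 21698 were found in the gene table. Intensities were turned to log2 after adding 1 and quantile normalized over all probe sets, and the brightest probe set of a gene was kept. A log2 difference is on this scale and understates changes of dim genes. Limma 3.58.1 in R 4.3.3 (lmFit, eBayes, group as the only term, all 4 arrays) was run on all genes, and an adjusted p below 0.05 was called. SE and 95% intervals are limma's moderated ones. The test was checked on simulated data with noise drawn independently for each array, so spread shared between arrays was not part of the check. Figures were drawn with matplotlib 3.10.9. The number of arrays limits the precision.

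The 10 genes, the lists, the motifs and the tests were chosen with earlier results of these data known. Genes named are the 10 genes, the called genes and the 2 largest differences of each pathway list, the 5 genes most like Tet1 and Gadd45a, and Mki67, Top2a and Mcm2 to Mcm7. Dnmt3b, Dnmt3l, Ogt, Idh2, Slc2a1, Slc23a2, Map2k3, Map3k4, Ddit3, Cdc6, Acan, Hapln1, Matn3 and the other marker genes were named after their values were seen. Alternatives were the deposited scaling, median centring, a pseudocount of 16, a trend with robust hyperparameters, a filter to the brighter genes (mean not under the median), a block for the replicate number, the mean of a gene's probe sets, all probe sets with 1 symbol tested together, and leaving out each array.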

Additional observations from a re-analysis of the deposited data

How the results depend on the processing

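The direction and side of the threshold of the 10 genes' differences were kept in 115 of 120 recomputations over 12 alternatives. The exceptions came from leaving out 1 array: Gadd45a lost its call each time, with differences of 1.20 to 1.32 log2, and Tet3, which ran from −0.46 to 0.70 log2, changed sign to −0.46 without day 15 replicate 2. Leaving out 1 array, the others ran from 0.99 to 1.90 log2 for Tet1, 0.34 to 0.93 for Tet2, −0.72 to −0.24 for Gadd45b, −1.23 to −0.091 for Gadd45g, −0.50 to −0.19 for Dnmt1, 0.086 to 0.68 for Dnmt3a, −0.83 to −0.37 for Uhrf1 and 0.0027 to 0.55 for Idh1. The cause was not tested, beyond there being fewer arrays, a fit in which a day with 1 array borrows its spread from the other day. Leaving out each array gave 175 to 286 called genes, 0 called of the 10 genes and 0 to 1 called pathway genes. The lowest counts were 175 (146 higher, 29 lower) without day 15 replicate 1 and 195 (167 higher, 28 lower) without day 15 replicate 2, against 342 with all 4 arrays. Under the other 8 alternatives Tet1 stayed between 1.42 and 1.47 log2 (limma adjusted p = 0.149 to 0.271) and Gadd45a between 1.25 and 1.30 (0.0212 to 0.0395).

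With the replicate number as a block 628 genes were called (440 higher, 188 lower) and 2 pathway genes, Nnmt and Ddit3, while Gadd45a was again the 1 called of the 10 genes (limma adjusted p = 0.0226). The labels do not say that the numbers pair the samples, and with 2 numbers the correlation of the replicate deviations across genes, 0.40, does not settle it. Of 214 recomputations for 18 named pathway genes, 212 kept direction and side of the threshold, and the other 2 were those of Nnmt. Apobec4 and Gsto2 were too dim for the filter to brighter genes and gave no value there.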
